A study of Arabidopsis thaliana with 24 samples.

Results

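Wild-type roots that had flown on Blue Origin's New Shepard rocket were compared with roots kept on the ground. The members are the 6 libraries of Wassilewskija (WS), an Arabidopsis thaliana wild type, that the labels give to that vehicle, 3 from flight and 3 from the ground, of 24 libraries in the series. Both groups are wild type. Seedlings were 11 days old and grew on plates with half-strength (0.5x) Murashige and Skoog salts, 0.5% sucrose and Phytagel. Black-out cloth covered the plates that flew. They met about 3 min of microgravity, after a peak near 3 g during ascent and before one of 5.7 g during descent, and their seedlings were fixed in RNAlater 33 min after landing. Ground plates stayed in a growth cabinet at 26 °C and were harvested 1 h after the flight seedlings. Flight, darkness under the cloth, the cabinet and the hour of harvest therefore cannot be told apart. The 3 replicates of a group derive from roots fixed in a single tube, so p-values measure only the spread between libraries. That spread was pooled over the 18 libraries of 6 groups in the fit, not over the 6 described here alone. Whole roots were used, in which fewer cells of a type and less RNA per cell cannot be told apart. Lists of genes for sugar starvation, for light and flavonoids, and for iron were set aside, and the account covers the other pathways of the root.

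As background, roots take up and move water through aquaporins, channel proteins of the plasma membrane (PIP) and of the vacuolar membrane, the tonoplast (TIP). Roots of the cabbage family also make glucosinolates, sulfur-rich defence compounds built from amino acids: indole glucosinolates from tryptophan and aliphatic ones from elongated methionine. Root growth rests on division in the tip, which needs DNA replication and new ribosomes, and on walls that are loosened and rebuilt as cells lengthen.

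Levels are in FPKM, fragments scaled by transcript length and library size, and log2 changes are flight minus ground on the scale log2(FPKM + 1), which understates the change of low genes. A gene was called where limma's Benjamini-Hochberg adjusted p over all genes tested was under 0.05. Of 20127 genes tested, 2345 (11.7%) were called, 1108 higher (5.51%) and 1237 lower (6.15%) in flight. The median log2 change over all genes tested was -0.08. A scale factor for each library moved the split to 1380 higher and 994 lower, and quantile normalization moved it to 1292 higher and 1134 lower. The call rate rose with level, from 2.97% of genes under 5 FPKM to 27.8% of genes at 100 FPKM or more. Every one of the 6 libraries held between 18463 and 18877 genes at 1 FPKM or more. Ground replicate 1 mattered most for the total: 879 genes were called when it was left out. Leaving out flight replicate 3 gave 1295, ground replicate 3 gave 1351 and flight replicate 1 gave 1421. All 3 flight libraries lay above all 3 ground libraries for 15.5% of genes tested and below them for 21.9%.

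**Figure D1:**
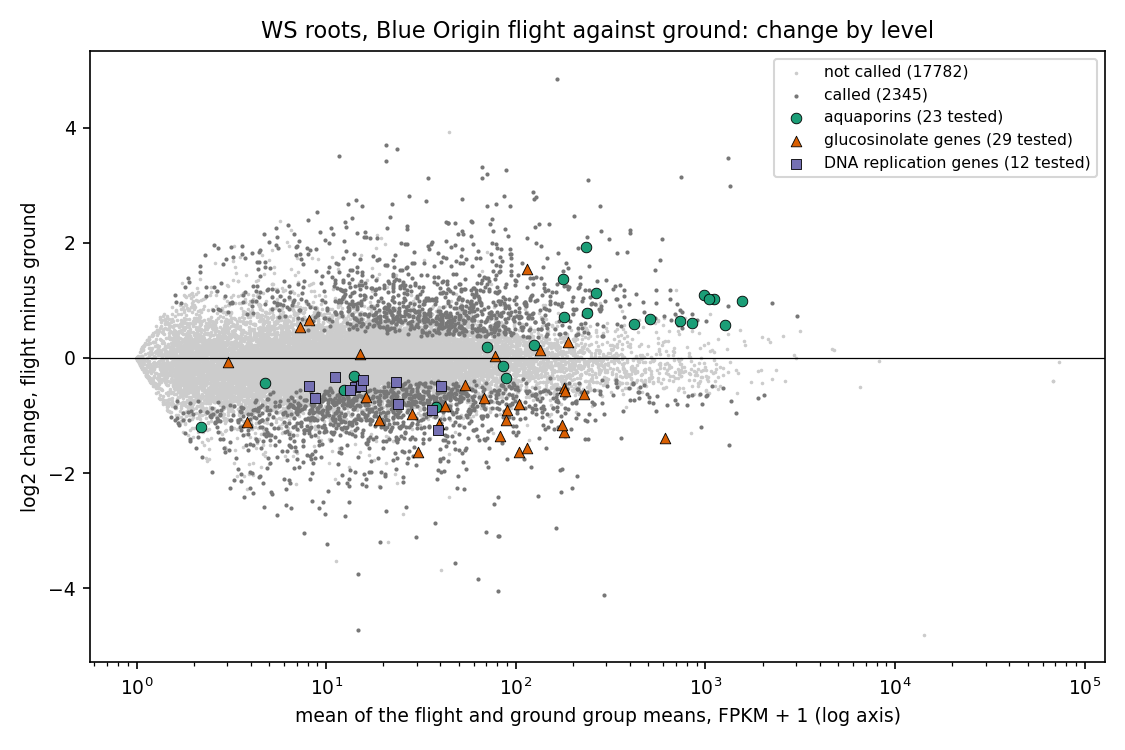
Log2 change between flight and ground (y axis) against the mean level in FPKM + 1 (x axis, log scale) for 20127 genes tested, with called genes in dark grey and 3 gene lists coloured. Aquaporins at 100 FPKM or more lie above 0, most glucosinolate genes lie below 0, and all 12 DNA replication genes lie below 0.

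Aquaporin transcripts were higher in the flown roots. Of 23 aquaporin genes tested, 10 rose, 0 fell and 13 were not called (43.5% called against 11.7% of all genes). Their median log2 change was 0.61 against -0.08 for all genes tested. The plasma membrane group had 7 of 13 members higher and the tonoplast group 3 of 6. None of the 3 NIP channels or the 1 SIP channel tested was called at an adjusted p under 0.05. Summed over the list, aquaporin transcripts lay at 12387, 13006 and 12866 FPKM in the 3 flight libraries and at 6430, 7071 and 8119.8 on the ground. Each flight sum was above each ground sum. All 10 genes that rose were among the 15 aquaporins at 100 FPKM or more, the class of levels in which 27.8% of all genes were called.

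The tonoplast channel TIP2;3 (AT5G47450) moved most, with 348, 363 and 394 FPKM in flight and 81.0, 108 and 101 on the ground (log2 change 1.93, SE 0.28, limma adjusted p = 0.000499). Its flight values lay close together and far above every ground value. PIP1;3 (AT1G01620) lay at 1390.2, 1245 and 1380.5 FPKM in flight and 527, 696 and 664 on the ground (log2 change 1.10, SE 0.14, limma adjusted p = 0.000273), and PIP2;1 (AT3G53420), a major water channel of roots, at 1294, 1491 and 1387 FPKM in flight and 579.8, 665 and 812 on the ground (log2 change 1.03, SE 0.17, limma adjusted p = 0.00146). In both genes the groups did not overlap. TIP1;2 (AT3G26520) was the most abundant aquaporin by group mean in flight, with 1992, 2089.8 and 2114 FPKM in flight and 856, 1164 and 1128 on the ground (log2 change 0.99, SE 0.16, limma adjusted p = 0.001). PIP2;7 (AT4G35100) had 679, 548 and 662 FPKM in flight and 401, 364 and 415 on the ground (log2 change 0.67, SE 0.11, limma adjusted p = 0.00155). The other 5 that rose were PIP2;4 (log2 change 1.38), PIP1;5 (1.13), PIP1;2 (1.02), TIP2;1 (0.71) and PIP2;2 (0.64), and in each the flight libraries again lay above the ground libraries. Of PIP2;2, 19.6% of the 50-base words are shared with another gene, so its reads can be split with its near copy PIP2;3, which was not called (log2 change 0.78, limma adjusted p = 0.0544). TIP1;1 was not called either (1534, 1437 and 1527 FPKM in flight, 914, 929 and 1215 on the ground, limma adjusted p = 0.0602). The boric acid channel NIP5;1 had lower values in flight (25.6, 24.4 and 27.6 FPKM against 54.1, 41.0 and 48.9) but was not called (limma adjusted p = 0.0785). Between 6 and 10 aquaporins were called higher when 1 library was left out, and the lowest count came without ground replicate 1. Calls were lost for PIP1;5 without ground replicate 1 (0.93), PIP1;2 without flight replicate 2 or ground replicate 1 (0.81 to 0.96), TIP2;1 without flight replicate 1 or 3 or ground replicate 1 or 2 (0.61 to 0.71) and PIP2;2 without any 1 library other than ground replicate 3 (0.53 to 0.69), where the values are log2 changes. With only the 6 libraries compared in the fit, 14 aquaporins were called higher and 2 lower, NIP5;1 and NIP2;1.

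**Figure D2:**
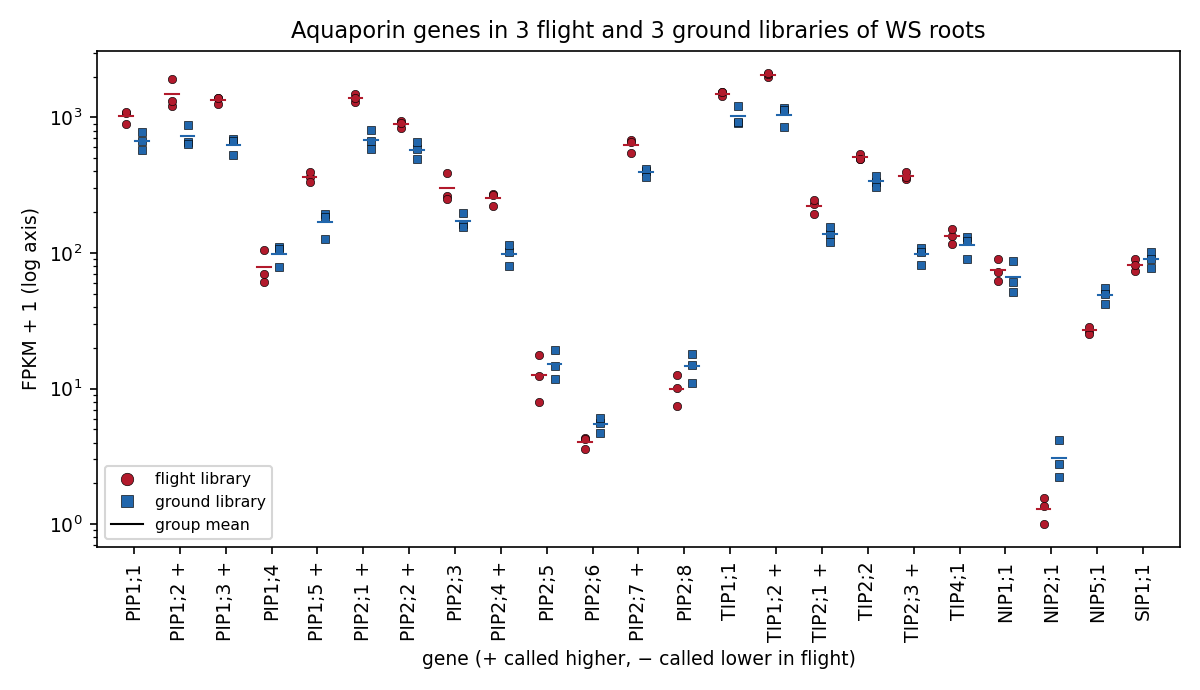
FPKM + 1 (y axis, log scale) of the 23 aquaporin genes tested (x axis) in each of 3 flight libraries (red circles) and 3 ground libraries (blue squares), with short lines for group means. The 10 genes marked + were called higher in flight, and in each of them the 2 groups do not overlap.

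Genes of indole glucosinolate synthesis were lower in the flown roots. Of 19 genes of this pathway and of the tryptophan synthesis that feeds it, 9 fell, 1 rose and 9 were not called (median log2 change -0.68). That is 52.6% called against 11.7% of all genes. Of the 19, 11 lay at 100 FPKM or more, where 27.8% of all genes were called, and 8 of these 11 were called. The 9 falls lay at several steps of the pathway, but not at all of them. They were TSA1 of tryptophan synthesis, CYP79B2, which oxidizes tryptophan, GGP1 and SUR1 of steps that aliphatic synthesis shares, UGT74B1 (glucosylation) and SOT16 (sulfation). The others were the regulator MYB34 and, in late decoration of the indole ring, CYP81F4 and IGMT5. Not among the falls were CYP83B1 of the core pathway and ASA1 and TSB1 of tryptophan synthesis. The list summed to 1675, 2056 and 1490 FPKM in flight and to 2863, 2765 and 2733 on the ground.

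MYB34 (AT5G60890), the transcription factor that drives indole glucosinolate genes in roots, lay at 50.6, 74.3 and 47.7 FPKM in flight and 174, 162 and 168 on the ground (log2 change -1.56, SE 0.22, limma adjusted p = 0.000418). CYP79B2 (AT4G39950), which converts tryptophan to indole-3-acetaldoxime, lay at 45.0, 77.0 and 33.0 FPKM in flight and 181, 143 and 140.4 on the ground (log2 change -1.64, SE 0.32, limma adjusted p = 0.00349). In both genes flight replicate 2 was the nearest to the ground libraries and still below them. Its close relative CYP79B3, which carries out the same step, was not called (221, 260.0 and 143 FPKM in flight and 161, 165 and 174 on the ground, limma adjusted p = 0.613). IGMT5 (AT1G76790), a methyltransferase that acts on the ring nitrogen, had 117, 102 and 93.3 FPKM in flight and 251, 275 and 236 on the ground (log2 change -1.28, SE 0.20, limma adjusted p = 0.000929). CYP81F4 (AT4G37410), which hydroxylates the ring before that methylation, had 269, 565 and 234 FPKM in flight and 854, 883 and 862 on the ground (log2 change -1.39, SE 0.30, limma adjusted p = 0.00652). The 1 gene that rose, IGMT1 (AT1G21100), methylates the hydroxylated ring at another position. It had 160.3, 182 and 160.1 FPKM in flight and 30.6, 79.8 and 72.8 on the ground (log2 change 1.55, SE 0.36, limma adjusted p = 0.0107), with ground replicate 1 lowest. Its near copy IGMT2 was not called (log2 change 0.06), and 12.1% of the 50-base words of IGMT1 and 34.3% of those of IGMT2 are shared with another gene. Smaller falls were those of TSA1 (log2 change -0.90), UGT74B1 (-0.84), SOT16 (-0.81), SUR1 (-0.70) and GGP1 (-0.62), each with 3 flight libraries below 3 ground libraries. The regulators MYB51 (log2 change 0.54, limma adjusted p = 0.16) and MYB122 (-0.08, limma adjusted p = 0.913) were not called. With 1 library left out, calls were lost for IGMT1 without ground replicate 1 (1.12), TSA1 without ground replicate 1 (-0.76), SOT16 without flight replicate 3 (-0.70) and SUR1 without flight replicate 3 or ground replicate 1 (-0.59 to -0.53), where the values are log2 changes.

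Aliphatic glucosinolate genes were lower as well. Of 10 tested, 5 fell, 0 rose and 5 were not called (50.0% called against 11.7% of all genes, median log2 change -1.08). CYP79F1 and the regulator MYB29 were too low to be tested. SOT17 (AT1G18590), a sulfotransferase of the last core step, lay at 10.6, 17.6 and 13.7 FPKM in flight and 52.8, 35.1 and 47.6 on the ground (log2 change -1.63, SE 0.26, limma adjusted p = 0.00111). MYB28 (AT5G61420), the main regulator of aliphatic glucosinolates, had 11.7, 8.76 and 13.2 FPKM in flight and 32.2, 20.5 and 21.9 on the ground (log2 change -1.07, SE 0.24, limma adjusted p = 0.00814). The chain elongation enzyme IPMDH1 (AT5G14200) had 114, 60.6 and 161 FPKM in flight and 284, 203 and 224 on the ground (log2 change -1.17, SE 0.30, limma adjusted p = 0.0172). The other falls were CYP79F2, which opens the core pathway (log2 change -1.15), and the glucosyltransferase UGT74C1 (-0.97). Flight replicate 2 was the lowest library for each of these genes except SOT17, for which it was the highest of the flight libraries. The list summed to 569, 249.95 and 697 FPKM in flight and to 1053, 805 and 815 on the ground. Fewer calls held without 1 library: 1 member was called without ground replicate 1 (median log2 change -0.91) and 2 without flight replicate 2 (-0.71). Calls did not hold for MYB28 without ground replicate 1 (-0.88), IPMDH1 without flight replicate 2 or ground replicate 1 (-1.04 to -0.79), CYP79F2 without flight replicate 2 or 3 or ground replicate 1 or 3 (-1.26 to -0.80) and UGT74C1 without flight replicate 2 or ground replicate 1 (-0.82 to -0.80). Sulfate uptake and assimilation genes, which supply sulfur to both pathways, had 0 of 19 members called in limma (median -0.32).

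**Figure D3:**
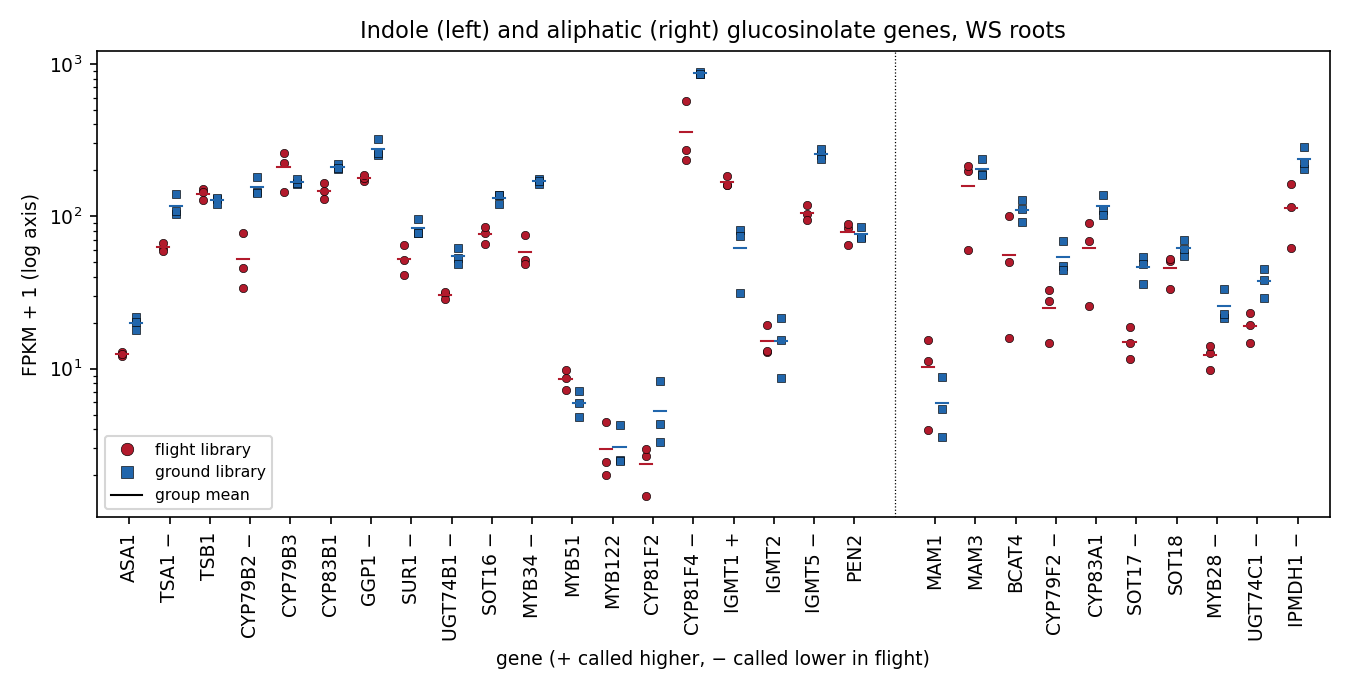
FPKM + 1 (y axis, log scale) of 19 indole (left of the dotted line) and 10 aliphatic (right) glucosinolate genes (x axis) in 3 flight (red circles) and 3 ground (blue squares) libraries, with short lines for group means. The 14 genes marked − were called lower in flight, and IGMT1, marked +, higher.

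Glucosinolates are cut by myrosinases, some of which sit in bodies of the endoplasmic reticulum in Brassicaceae roots. The 8 genes of these bodies did not move one way: 2 rose, 0 fell and 6 were not called. The 6 that were not called had a negative log2 change. The share called was above the 11.7% of all genes but below the 27.8% of genes at 100 FPKM or more. At that level lay 5 of the 8, so the count is no result about the group. The β-glucosidases BGLU21 (AT1G66270) and BGLU22 (AT1G66280) rose. BGLU21 had 797, 626 and 743 FPKM in flight and 406, 369.6 and 335 on the ground (log2 change 0.96, SE 0.21, limma adjusted p = 0.00723), and BGLU22 had 417, 400.4 and 411 FPKM in flight and 247, 294 and 278 on the ground (log2 change 0.59, SE 0.11, limma adjusted p = 0.00287), with no overlap of the groups. PYK10, the main β-glucosidase of these bodies, was not called (4693, 7251 and 4424 FPKM in flight and 7157, 7599.7 and 8016 on the ground, limma adjusted p = 0.218), nor was the regulator NAI1 (limma adjusted p = 0.0548). The nitrilase NIT2 (AT3G44300), which acts on products of glucosinolate breakdown, was among the largest rises of all, from 69.9, 75.3 and 79.4 FPKM on the ground to 401, 481 and 549 in flight (log2 change 2.65, SE 0.24, limma adjusted p = 4.22e-05). Of 7 root triterpene genes, 0 were called.

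DNA replication genes lay lower in the flown roots. Of 12 tested, 4 fell, 0 rose and 8 were not called (33.3% called against 11.7% of all genes). The 4 include the D-type cyclins CYCD3;1 and CYCD3;3, and only these cyclins kept the call in each fit with 1 library left out. All 12 had a negative log2 change, and the median was -0.50. CYCD3;1 (AT4G34160), a D-type cyclin that moves cells towards replication, lay at 21.9, 24.8 and 19.0 FPKM in flight and 58.9, 55.6 and 46.9 on the ground (log2 change -1.26, SE 0.21, limma adjusted p = 0.00131). Its relative CYCD3;3 (AT3G50070) had 14.6, 18.1 and 16.3 FPKM in flight and 28.2, 26.1 and 33.9 on the ground (log2 change -0.81, SE 0.18, limma adjusted p = 0.00917). The sliding clamp gene PCNA1 (AT1G07370) had 23.1, 20.5 and 27.8 FPKM in flight and 60.2, 35.3 and 43.2 on the ground (log2 change -0.91, SE 0.24, limma adjusted p = 0.0194), with ground replicate 1 highest. The helicase subunit MCM6 was just past the threshold (log2 change -0.69, limma adjusted p = 0.0494), and the other 5 MCM genes were not called. Among 4 markers of dividing cells, 1 fell, the mitotic kinase CDKB1;1 (AT3G54180), with 15.4, 12.7 and 12.7 FPKM in flight and 38.4, 25.7 and 24.0 on the ground (log2 change -1.03, SE 0.27, limma adjusted p = 0.022). CYCB1;1, CDKB2;1 and KN were not called. The 4 markers summed to 78.1 to 105 FPKM in flight and 105 to 154 on the ground, and whether fewer dividing cells account for the replication genes was not tested. Calls were also lost for PCNA1 without flight replicate 1 or 2 or ground replicate 1 (-0.89 to -0.70), MCM6 without any 1 library (-0.83 to -0.48) and CDKB1;1 without flight replicate 2 or 3 or ground replicate 1 (-0.99 to -0.83), where the values are log2 changes. The MCM6 call was also lost under both scalings and with only the libraries compared. Of 18 regulators of the root meristem and of lateral roots, such as PLT1, SHR and LBD16, 0 were called by limma at an adjusted p under 0.05.

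Ribosome genes held few calls. Of 20 cytosolic ribosomal protein genes, 2 fell and 0 rose (10.0% called against 11.7% of all genes), although 19 had a negative log2 change and the median was -0.42. All 20 lay at 100 FPKM or more, where 27.8% of all genes were called. RPL23AA (AT2G39460) had 527, 461 and 558 FPKM in flight and 1048, 707 and 845 on the ground (log2 change -0.73, limma adjusted p = 0.0338), with ground replicate 1 highest. RPL5B fell by 0.64 (limma adjusted p = 0.0279). Of 14 genes of ribosome assembly, 2 fell and 0 rose (14.3% called), and all 14 had a negative log2 change (median -0.34). At 100 FPKM or more lay 6 of the 14, and 0 of these 6 were called. The larger fall was in AT3G15460, a Brix-domain protein of ribosomal RNA processing, with 5.30, 5.42 and 3.28 FPKM in flight and 21.7, 12.7 and 16.0 on the ground (log2 change -1.64, SE 0.24, limma adjusted p = 0.000573). The other, AT1G75670, encodes a subunit of an RNA polymerase. It was called with overlapping groups (limma adjusted p = 0.0412). Of 12 translation factors, 10 of them at 100 FPKM or more, 1 fell and 0 rose. That share of 8.33% is below the 11.7% of all genes. The gene was the cap-binding factor EIF4E (AT4G18040), which went from 168, 135 and 147 FPKM on the ground to 83.0, 83.8 and 81.8 in flight (log2 change -0.84, SE 0.13, limma adjusted p = 0.000929). Of 18 proteasome subunits 1 rose (5.56%), RPT5A (log2 change 0.39, limma adjusted p = 0.0362). The call was lost for RPL23AA without any 1 library other than ground replicate 2 (-0.79 to -0.59), RPL5B without any 1 library other than ground replicate 2 (-0.71 to -0.56), AT1G75670 without flight replicate 1 or 3 or ground replicate 1 or 3 (-0.66 to -0.59) and RPT5A without any 1 library other than flight replicate 2 (0.34 to 0.41). Without ground replicate 1 the ribosomal protein list had a median of -0.25 and 0 members called.

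Wall genes moved in both directions. Xyloglucan-modifying enzymes (XTH), which cut and rejoin wall polymers, had 4 of 26 tested genes lower and 2 higher (23.1% called against 11.7% of all genes). XTH32 (AT2G36870) went from 37.5, 37.2 and 46.9 FPKM on the ground to 5.86, 11.6 and 8.18 in flight (log2 change -2.16, SE 0.25, limma adjusted p = 0.000118). XTH7 (AT4G37800) went from 79.7, 85.2 and 73.8 to 10.7, 26.3 and 13.6 FPKM (log2 change -2.27, SE 0.43, limma adjusted p = 0.00314), and XTH31 (AT3G44990) from 437, 262 and 318 to 68.4, 109 and 66.6 (log2 change -2.05, SE 0.33, limma adjusted p = 0.00107). XTH9 fell as well (log2 change -1.48), while XTH24 (1.66) and XTH30 (0.89) rose. Of 15 expansins (EXPA), which loosen walls, 4 fell and 0 rose, which is 26.7% against 6.15% of all genes called lower. EXPA15 (AT2G03090) had 60.1, 97.6 and 60.2 FPKM in flight and 329, 234 and 266 on the ground (log2 change -1.94, SE 0.27, limma adjusted p = 0.000381), and EXPA6 (log2 change -1.77), EXPA1 (-1.36) and EXPA4 (-1.08) moved the same way. Of 15 fasciclin-like arabinogalactan proteins (FLA), 4 fell and 0 rose (26.7%), in the order FLA15 (-1.85), FLA10 (-1.25), FLA1 (-0.83) and FLA16 (-0.79). Members of these families were taken by symbol, and those named here were chosen after their values were seen. The β-xylosidase BXL1 (AT5G49360), which trims wall sugars, had the second largest of the 15 rises taken outside the starvation, light and iron lists, from 9.23, 14.7 and 13.9 to 93.2, 76.5 and 100.1 FPKM (log2 change 2.76, SE 0.31, limma adjusted p = 0.000106). UDP-glucose epimerase genes UGE1 and UGE3, which make UDP-galactose, rose by 2.24 and 2.26 on the log2 scale. PGIP1 (AT5G06860), a wall inhibitor of polygalacturonases, went from 27.0, 21.5 and 25.1 to 47.5, 55.0 and 64.9 FPKM (log2 change 1.15, SE 0.17, limma adjusted p = 0.000573). Cellulose synthase subunit CESA5 (AT5G09870) had 10.5, 13.3 and 10.2 FPKM in flight and 23.4, 21.7 and 23.3 on the ground (log2 change -0.96, SE 0.14, limma adjusted p = 0.000499), while CESA1, CESA2, CESA3 and CESA6 were not called. In all, 2 of 18 wall protein and cellulose genes rose and 3 fell (27.8% called, with 9 of the 18 at 100 FPKM or more, where 27.8% of all genes were called), with PME17 (log2 change 1.05), FLA1 (-0.83) and COB (-0.36) as the others. Receptors and peptides of wall sensing had 0 of 12 called in limma. Calls were lost for EXPA4 without flight replicate 1 or 3 or ground replicate 1 or 3 (-1.09 to -0.85), FLA10 without any 1 library (-1.43 to -1.11), FLA16 without flight replicate 1 or 3 or ground replicate 1 (-0.80 to -0.73), PME17 without any 1 library (0.82 to 1.18), FLA1 without flight replicate 1 or 3 or ground replicate 1 (-0.84 to -0.70) and COB without any 1 library (-0.37 to -0.34).

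Of the cytoskeleton, 28 genes were tested, of which 4 were called, 2 higher and 2 lower. That share of 14.3% is near the 11.7% of all genes and below the 27.8% of genes at 100 FPKM or more, the level of 17 of the 28, so it is no result about the group. ACT8 (AT1G49240) lay at 883, 957 and 951 FPKM in flight and 424, 516 and 515 on the ground (log2 change 0.94, SE 0.11, limma adjusted p = 0.000118). ACT2 (AT3G18780) lay at 842, 854 and 905 FPKM in flight and 486, 529 and 514 on the ground (log2 change 0.77, SE 0.11, limma adjusted p = 0.000483). These vegetative actins are often used as reference genes, and in both the groups were far apart. ACT7 was not called (log2 change -0.47, limma adjusted p = 0.0562). The tubulin gene TUB7 (AT2G29550) had 76.5, 70.9 and 77.3 FPKM in flight and 159.7, 118 and 129 on the ground (log2 change -0.84, SE 0.20, limma adjusted p = 0.0121), and the microtubule bundler MAP65-1 fell by 0.44 (limma adjusted p = 0.0172). The calls lost with 1 library left out were TUB7 without ground replicate 1 (-0.71) and MAP65-1 without flight replicate 2 or 3 or ground replicate 1 or 2 (-0.46 to -0.40). The other 14 tubulin genes tested were not called.

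Hormone lists held few calls. Of 20 ethylene genes, 3 rose and 1 fell. Ethylene is sensed by receptors of the endoplasmic reticulum, EIN3 is the transcription factor that switches on the response, and the F-box protein EBF2 removes EIN3. EIN3 (AT3G20770) lay at 84.0, 94.5 and 91.1 FPKM in flight and 60.6, 69.4 and 62.2 on the ground (log2 change 0.48, SE 0.13, limma adjusted p = 0.0256), EBF2 (AT5G25350) at 61.1, 63.6 and 65.1 FPKM in flight and 34.6, 49.0 and 41.2 on the ground (log2 change 0.61, SE 0.18, limma adjusted p = 0.0376) and the receptor gene ERS1 (AT2G40940) at 81.3, 78.8 and 75.5 FPKM in flight and 50.8, 62.1 and 52.3 on the ground (log2 change 0.51, SE 0.16, limma adjusted p = 0.0449). The synthesis enzyme ACO1 (AT2G19590) went the other way, with 13.6, 13.2 and 14.1 FPKM in flight and 34.7, 33.1 and 30.0 on the ground (log2 change -1.20, SE 0.26, limma adjusted p = 0.0068). In all 4 genes flight and ground did not overlap. Of 27 cytokinin genes 1 rose, the activating response regulator ARR1 (AT3G16857), from 30.3, 29.1 and 28.3 to 43.5, 48.3 and 49.4 FPKM (log2 change 0.67, SE 0.11, limma adjusted p = 0.00149). ARR6, a regulator that dampens the response, fell by 0.65. Gibberellin genes had 3 of 20 lower and 0 higher. The synthesis gene GA3OX2 fell by 2.11, the inactivating enzyme GA2OX1 by 0.85 and the small peptide gene GASA6 by 1.76. Brassinosteroid genes had 2 of 15 higher, the synthesis gene CPD (log2 change 0.63) and the kinase BIN2 (0.46), and 1 lower, the synthesis gene DWF4 (-0.94). These shares lay between 7.41% and 20.0% against 11.7% of all genes. With 1 library left out, calls were lost for EIN3 without flight replicate 2 or 3 or ground replicate 1 or 3 (0.44 to 0.47), EBF2 without any 1 library other than ground replicate 2 (0.48 to 0.63), ERS1 without any 1 library other than ground replicate 2 (0.46 to 0.54), ARR6 without any 1 library other than ground replicate 2 (-0.70 to -0.59), GA3OX2 without flight replicate 1 or 3 or ground replicate 1 or 3 (-2.05 to -1.80), GA2OX1 without any 1 library other than flight replicate 2 (-0.89 to -0.79), GASA6 without any 1 library other than ground replicate 3 (-1.96 to -1.42), CPD without flight replicate 1 or 2 or ground replicate 1 or 3 (0.50 to 0.62), BIN2 without flight replicate 2 or ground replicate 1 (0.42 to 0.43) and DWF4 without flight replicate 1 or 3 or ground replicate 1 or 3 (-0.98 to -0.80).

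Glutathione transferases, which join glutathione to reactive compounds, were mixed. Of 30 genes of this family and of glutathione metabolism, 2 rose, 5 fell and 23 were not called (23.3% called against 11.7% of all genes, median -0.06, above 0 under both scalings). Of the 30, 14 lay at 100 FPKM or more, where 27.8% of all genes were called, and 3 of these 14 were called. GSTF3 (AT2G02930) rose, with 4.99, 4.50 and 4.64 FPKM in flight and 0.35, 0.84 and 0.31 on the ground (log2 change 1.95, SE 0.37, limma adjusted p = 0.00311). GSTL1 (AT5G02780) fell, with 14.0, 18.9 and 17.8 FPKM in flight and 127, 44.3 and 68.3 on the ground (log2 change -2.05, SE 0.60, limma adjusted p = 0.0355), and its ground replicate 1 was the highest. GSTU20 (log2 change -1.19), GSTU17 (-1.13), the peroxidase GPX6 (-0.70) and GSTL3 (-0.54, limma adjusted p = 0.0498) fell too, and GSTU25 rose (0.78). Of 16 suberin genes, which build the waxy barrier of the root, 2 fell and 1 rose (18.8% called), and 15 had a negative log2 change (median -0.56). The transporter gene ABCG2 went from 13.0, 12.5 and 16.5 to 7.24, 4.74 and 3.83 FPKM (log2 change -1.29), the hydroxylase CYP86B1 fell by 1.06, and the elongase KCS20 rose, from 63.3, 76.3 and 74.5 to 120.3, 138 and 118 FPKM (log2 change 0.81). Of 14 phenylpropanoid genes, 2 fell and 0 rose, a share of 14.3% that is near that of all genes, although 11 of the 14 lay at 100 FPKM or more. These were the cinnamoyl-CoA reductase gene CCR1 (AT1G15950, log2 change -0.75) and FAH1 (-0.94). In isoprenoid synthesis, HMG1, the rate-setting reductase of the mevalonate pathway, rose (log2 change 0.57, SE 0.12, limma adjusted p = 0.00623), as did MVK (log2 change 0.56), with 12 of 14 genes not called (14.3% called). Calls did not hold for GSTL1 without any 1 library other than ground replicate 2 (-2.13 to -1.66), GSTU20 without flight replicate 1 or 2 or ground replicate 1 or 3 (-1.23 to -0.998), GSTU17 without flight replicate 1 or 3 or ground replicate 1 or 3 (-1.18 to -0.85), GPX6 without flight replicate 1 or ground replicate 2 or 3 (-0.69 to -0.64), GSTL3 without any 1 library other than ground replicate 3 (-0.54 to -0.42), GSTU25 without flight replicate 1 or 3 or ground replicate 2 or 3 (0.66 to 0.81), ABCG2 without flight replicate 3 or ground replicate 3 (-1.17 to -1.12), CYP86B1 without flight replicate 1 or 3 or ground replicate 1 or 3 (-1.15 to -0.81), FAH1 without any 1 library (-1.03 to -0.86) and MVK without flight replicate 1 or 3 or ground replicate 1 or 3 (0.46 to 0.57).

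In primary metabolism, 3 of 18 genes of glycolysis and organic acids fell and 1 rose (22.2% called against 11.7% of all genes), with 13 of the 18 at 100 FPKM or more, where 27.8% of genes were called. GAPC2 fell by 0.49, PGK by 0.52 and the citrate synthase CSY4 by 0.58. PCK1, a phosphoenolpyruvate carboxykinase that feeds sugar synthesis from organic acids, rose (log2 change 0.84), and its relative PCK2 (AT5G65690) was among the 15 largest rises, from 9.66, 14.1 and 15.4 to 69.5, 57.1 and 86.3 FPKM (log2 change 2.36, SE 0.29, limma adjusted p = 0.000189). A methyl cycle remakes S-adenosylmethionine, the donor of methyl groups. Of 9 genes listed for it 1 fell, a share of 11.1% that is near that of all genes. This was the synthetase gene MAT4 (AT3G17390), from 466, 347 and 347 FPKM on the ground to 226, 172 and 191 in flight (log2 change -0.97, SE 0.22, limma adjusted p = 0.0101). SAHH2 (AT3G23810), an enzyme that clears a by-product of the cycle and is not on that list, was among the 15 largest falls, from 380.0, 288 and 303 to 53.9, 101 and 54.3 FPKM (log2 change -2.25, SE 0.34, limma adjusted p = 0.000713). Of 11 ion transport genes listed, 1 rose and 1 fell (18.2% called against 11.7% of all genes). The outward potassium channel of the stele, SKOR, rose (17.3, 19.5 and 28.2 FPKM in flight and 10.6, 6.34 and 9.15 on the ground, log2 change 1.22) and the calcium exchanger CAX1 fell by 0.75. CHX17 (AT4G23700), a cation exchanger that is not on that list, had 41.4, 89.0 and 43.6 FPKM in flight and 5.34, 9.10 and 8.09 on the ground (log2 change 2.73, SE 0.33, limma adjusted p = 0.000159), with flight replicate 2 highest. ZIP4 (log2 change 0.75, limma adjusted p = 0.05 after rounding, just under the threshold) and YSL2 (-0.69) were the 2 zinc and copper genes called, of 19 (10.5%, near the share of all genes). Calls were also lost for GAPC2 without any 1 library other than ground replicate 2 (-0.52 to -0.41), PGK without any 1 library other than ground replicate 2 (-0.55 to -0.41), CSY4 without flight replicate 1 or 2 or ground replicate 1 or 3 (-0.57 to -0.51), PCK1 without flight replicate 1 or 3 or ground replicate 1 or 3 (0.71 to 0.75), MAT4 without ground replicate 1 (-0.83), SKOR without flight replicate 3 or ground replicate 2 or 3 (1.03 to 1.27), CAX1 without flight replicate 1 or 3 or ground replicate 1 or 3 (-0.73 to -0.61), ZIP4 without any 1 library other than ground replicate 2 (0.62 to 0.78) and YSL2 without flight replicate 3 or ground replicate 3 (-0.66 to -0.58).

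Across all genes that had a symbol, lay at or above the median level and were outside the 3 lists set aside, the 15 largest rises ran from 2.20 to 2.80 and the 15 largest falls from -1.99 to -2.87 on the log2 scale. The largest rise was GAT1_2.1 (AT1G15040), a predicted glutamine amidotransferase, with 175, 240.3 and 248 FPKM in flight and 18.2, 33.1 and 46.8 on the ground (log2 change 2.80, SE 0.33, limma adjusted p = 0.000118). AGT (AT2G13360), an aminotransferase of photorespiration, went from 6.58, 32.8 and 23.3 to 120.1, 83.7 and 148 FPKM (log2 change 2.65, SE 0.48, limma adjusted p = 0.00233), and HIS1-3 (AT2G18050), a linker histone induced by water deficit, from 12.1, 25.1 and 29.3 to 101, 204 and 72.3 (log2 change 2.40, SE 0.40, limma adjusted p = 0.00127). OZF1 (AT2G19810), a zinc finger protein linked to oxidative stress, had 31.9, 58.9 and 40.1 FPKM in flight and 7.05, 9.76 and 6.98 on the ground (log2 change 2.29, SE 0.24, limma adjusted p = 9.77e-05). The remaining rises were the trypsin inhibitor KTI1 (log2 change 2.23), the dormancy-associated gene DYL1 (2.20), the kinase SNRK2-8 (2.20), the glutaredoxin ROXY2 (2.43) and MEE14 (2.37). The largest fall was UGT84A2 (AT3G21560), a glucosyltransferase that acts on sinapate, with 5.94, 14.4 and 5.55 FPKM in flight and 61.4, 62.9 and 67.9 on the ground (log2 change -2.87, SE 0.41, limma adjusted p = 0.000506). ELF4 (AT2G40080) and PCL1 (AT3G46640), both of the evening complex of the circadian clock, also fell: ELF4 had 20.8, 15.6 and 26.5 FPKM in flight and 77.5, 267 and 71.0 on the ground, and PCL1 had 7.04, 1.53 and 6.51 FPKM in flight and 20.3, 39.4 and 17.1 on the ground (log2 changes -2.42 and -2.22). NIA1 (AT1G77760), a nitrate reductase, went from 13.6, 25.6 and 23.0 to 4.74, 2.14 and 4.09 FPKM (log2 change -2.22, SE 0.37, limma adjusted p = 0.00131). TPPI, a trehalose phosphatase (log2 change -2.50), MSRB6 (-2.61), the wall invertase gene CWINV5 (-2.16), the isochorismate synthase ICS2 (-2.10), PR-1-LIKE (-2.10) and NPQ4 (-1.99) complete the falls not yet given. The call was lost for ROXY2 without flight replicate 2 or 3 or ground replicate 1 or 2 (2.05 to 2.33), MEE14 without flight replicate 1 or 3 or ground replicate 1 or 3 (1.71 to 2.44), CWINV5 without flight replicate 3 or ground replicate 1 (-1.91 to -1.71) and PR-1-LIKE without ground replicate 1 (-2.01). With a pseudocount of 0.1, CWINV5, PR-1-LIKE and NPQ4 were not called.

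Families counted by symbol added to these groups, and their members named here were chosen after their values were seen. Heat shock proteins, chaperones that hold other proteins in shape, had 6 of 19 tested genes lower and 0 higher (31.6% called against 11.7% of all genes). HSP70 (AT3G12580) lay at 10.6, 30.7 and 9.07 FPKM in flight and 65.6, 44.1 and 68.3 on the ground (log2 change -1.94, SE 0.43, limma adjusted p = 0.00761), with flight replicate 2 nearest to the ground libraries. HSP90.1 (AT5G52640) lay at 4.95, 5.86 and 3.38 FPKM in flight and 25.3, 15.6 and 23.9 on the ground (log2 change -1.97, SE 0.32, limma adjusted p = 0.00111). HSP101 (log2 change -1.05), Hsp70-2 (-1.22), HSP81-3 (-1.002) and HSP81-2 (-0.87) fell with them, and in each of the 6 genes the groups did not overlap.

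Of 10 nitrate transporters (NRT), 3 fell and 2 rose (50.0% called against 11.7% of all genes). NRT1.1 (AT1G12110), a transporter that also senses nitrate, lay at 22.4, 24.2 and 24.0 FPKM in flight and 89.0, 53.2 and 93.4 on the ground (log2 change -1.66, SE 0.46, limma adjusted p = 0.0262). NRT2:1 (AT1G08090), the main carrier of high-affinity uptake, lay at 22.8, 23.7 and 42.4 FPKM in flight and 123, 83.2 and 127 on the ground (log2 change -1.90, SE 0.51, limma adjusted p = 0.0233). The third fall was NRT1.7 (log2 change -1.72). NRT1.5 (AT1G32450), which loads nitrate into the xylem, rose, with 509, 789.9 and 554 FPKM in flight and 356, 269.8 and 310.2 on the ground (log2 change 0.96, SE 0.20, limma adjusted p = 0.00603), and so did NRT2.6 (log2 change 1.69). Of 33 UMAMIT genes, which encode transporters of amino acids and related solutes, 5 rose and 1 fell (18.2% called). UMAMIT20 (AT4G08290), which is on the set-aside starvation list, changed most, with 181, 155 and 139 FPKM in flight and 7.51, 27.6 and 17.7 on the ground (log2 change 3.26, SE 0.53, limma adjusted p = 0.00111), and ground replicate 1 was the lowest. UMAMIT17 (log2 change 1.95), UMAMIT33 (1.73), UMAMIT12 (1.11) and UMAMIT28 (0.94) also rose, and UMAMIT36 fell (-1.74). Of 23 CLE genes, which encode small signalling peptides, CLE2 (log2 change 1.30), CLE5 (1.73) and CLE6 (1.97) rose and 0 fell. Of 20 autophagy genes (ATG), ATG8E (1.06) and ATG8F (0.98) rose and 0 fell. The shares called in the CLE and ATG families, 13.0% and 10.0%, were near the 11.7% of all genes, so these counts are no result about either family.

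UDP-glycosyltransferases (UGT), which attach sugars to small molecules, had 10 of 46 tested genes lower and 2 higher (26.1% called). The set-aside flavonoid and light genes UGT78D1, UGT78D2 and UGT84A1 and the glucosinolate gene UGT74B1 are among the falls. UGT72E1 (log2 change -1.56), UGT72E2 (-1.04) and UGT72E3 (-0.96), which act on lignin precursors, fell together. UGT74F1 (-1.22) and UGT72B3 (-0.99) fell too. UGT74F2, a salicylate glucosyltransferase (0.74), and UGT73B4 (0.72) rose. Of 59 WRKY factors, 6.78% of which were called, WRKY40 (log2 change 1.41), WRKY8 (1.24) and WRKY45 (0.93) rose and WRKY48 (-0.85) fell. Cytochrome P450 genes (CYP) had 7 of 146 higher and 11 lower, which is 12.3% against 11.7% of all genes, and 0 of 17 LBD factors were called by limma. Single genes of other lists were OM66 of mitochondrial stress (log2 change -1.03), XRI1 of DNA damage (-0.46), and the RNA-binding genes GRP8 (-0.51) and RS40 (0.79), of 9, 10 and 12 genes tested (11.1%, 10.0% and 16.7% called). Among the genes of the last 3 paragraphs, calls were lost for Hsp70-2 without flight replicate 1 or ground replicate 1 (-1.09 to -0.96), HSP81-3 without ground replicate 1 (-0.83), HSP81-2 without flight replicate 1 or 3 or ground replicate 1 or 3 (-0.87 to -0.70), NRT1.1 without any 1 library other than ground replicate 2 (-1.68 to -1.51), NRT2:1 without flight replicate 1 or 2 or ground replicate 1 or 3 (-1.82 to -1.75), UMAMIT36 without flight replicate 1 or 3 or ground replicate 1 or 3 (-1.67 to -1.52), ATG8E without flight replicate 3 or ground replicate 1 or 3 (0.86 to 1.07), UGT72E1 without any 1 library other than ground replicate 2 (-1.76 to -1.35), UGT72E2 without flight replicate 1 or 3 or ground replicate 1 or 3 (-1.05 to -0.95), UGT72E3 without flight replicate 2 or 3 or ground replicate 1 or 3 (-0.98 to -0.84), UGT78D1 without flight replicate 3 or ground replicate 1 (-1.26 to -1.16), UGT74F2 without flight replicate 1 or 3 or ground replicate 1 (0.58 to 0.74), UGT74F1 without any 1 library (-1.41 to -1.10), UGT72B3 without any 1 library (-1.10 to -0.85), UGT73B4 without any 1 library other than flight replicate 3 (0.68 to 0.77), WRKY8 without flight replicate 2 or ground replicate 1 or 2 (0.96 to 1.25), WRKY45 without flight replicate 2 or ground replicate 1 (0.80 to 0.85), WRKY48 without any 1 library other than ground replicate 3 (-0.88 to -0.79), XRI1 without any 1 library (-0.51 to -0.39) and GRP8 without flight replicate 2 or 3 or ground replicate 1 (-0.50 to -0.38).

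**Figure D4:**
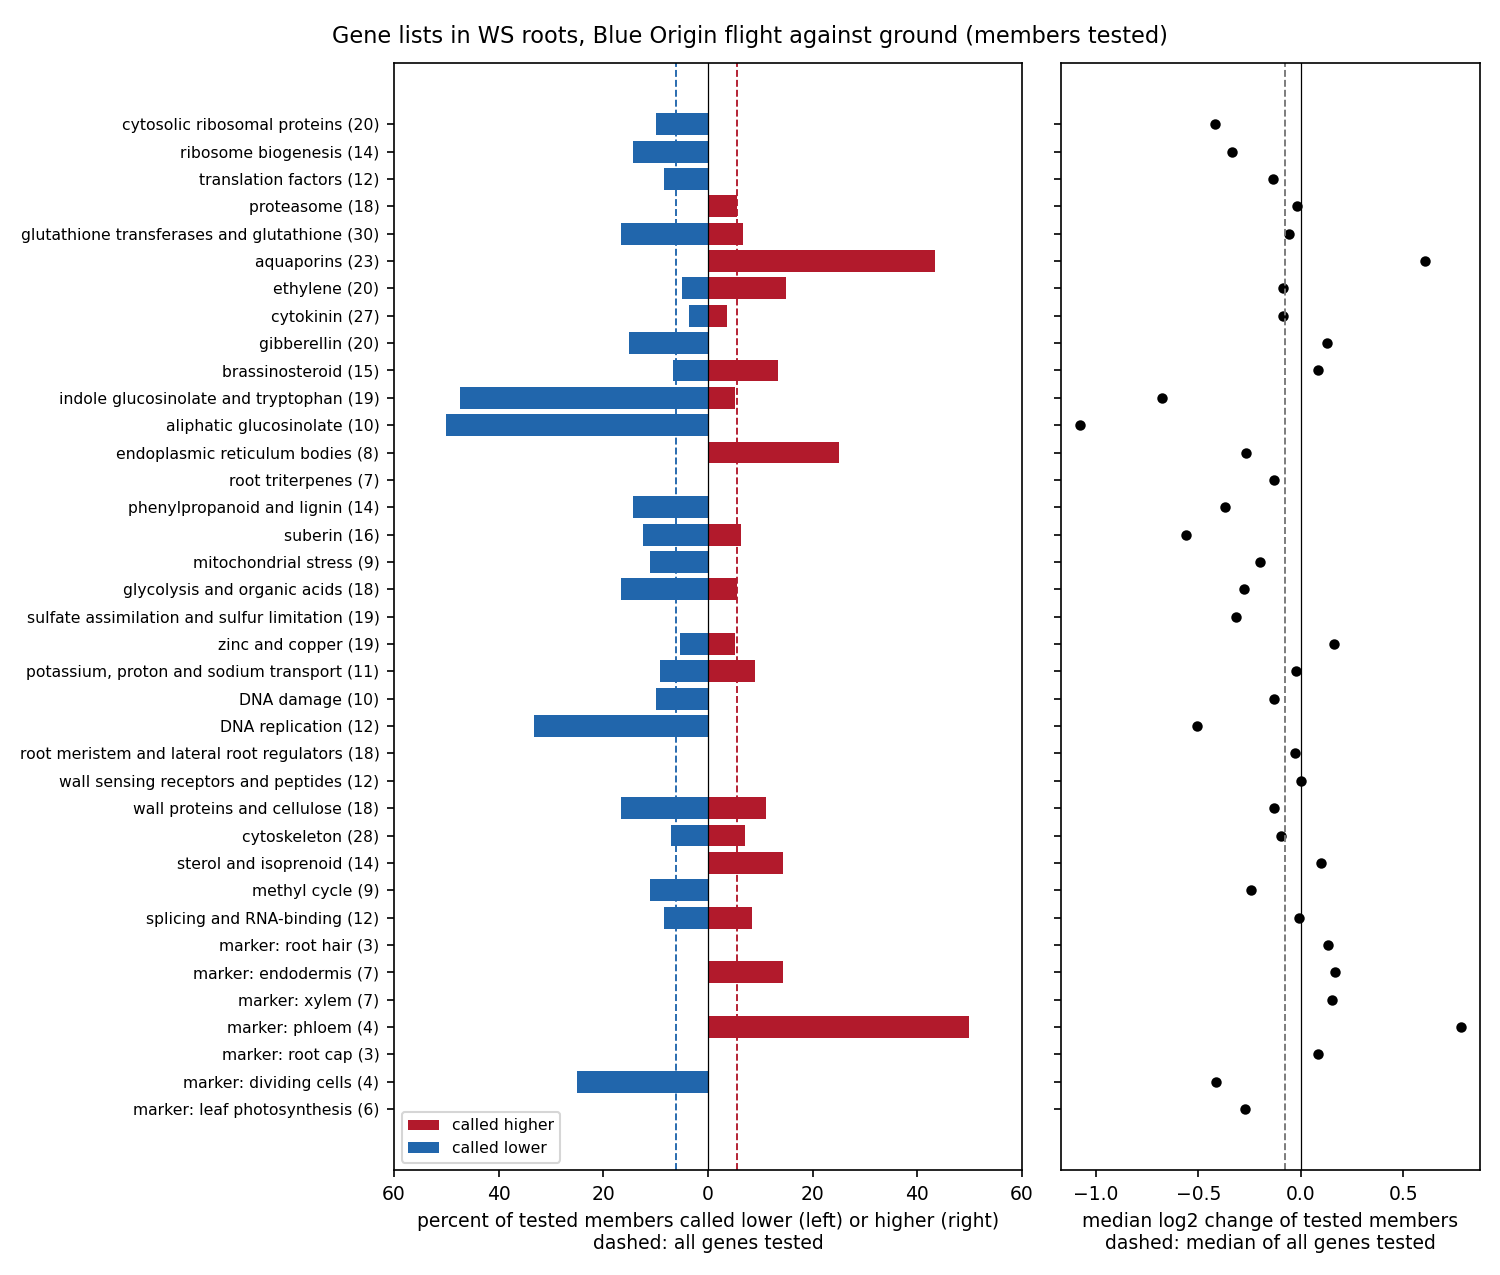
Left, the percentage of tested members (numbers in brackets) called lower (blue, leftwards) or higher (red, rightwards) in each gene list, with dashed lines at the shares of all genes tested (6.15% and 5.51%). Right, the median log2 change of each list, with a dashed line at the median of all genes tested (-0.08). Aquaporins and both glucosinolate lists lie farthest from the dashed lines among lists of 10 or more genes.

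Markers of root cell types were read beside these groups. Phloem markers had 2 of 4 higher (50.0% called against 11.7% of all genes). PP2-A1 (AT4G19840), a lectin of phloem sap, lay at 66.5, 68.1 and 75.0 FPKM in flight and 24.2, 24.4 and 25.7 on the ground (log2 change 1.46, SE 0.17, limma adjusted p = 0.000118), and SUC2 (AT1G22710), the sucrose transporter of companion cells, at 30.7, 23.4 and 40.8 FPKM in flight and 11.3, 19.9 and 12.0 on the ground (log2 change 1.09, SE 0.26, limma adjusted p = 0.0125). APL and SEOR1, which mark phloem identity and sieve elements, were not called, and the list summed to 120 to 145 FPKM in flight and 52.2 to 73.1 on the ground. Of 7 endodermis markers 1 rose, a share of 14.3% that is near that of all genes. This was CASP5 (10.4, 12.0 and 8.54 FPKM in flight and 1.68, 3.96 and 2.63 on the ground, log2 change 1.63), and the list summed to 227 to 449 FPKM in flight and 230 to 387 on the ground. Root hair (3 genes), xylem (7) and root cap (3) markers had 0 called by limma. Leaf photosynthesis markers, present as a check on shoot tissue, had 0 of 6 called and summed to 259.7 to 344 FPKM in flight and 207 to 364 on the ground. None of the marker genes of these 7 lists was at 0 in any of the 6 libraries. The part of cell composition in the changes above was not tested. Calls were lost for SUC2 without flight replicate 3 or ground replicate 1 or 3 (0.89 to 0.99) and CASP5 without ground replicate 1 (1.41).

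The same flight carried sku5, a mutant in the WS background, with its own 3 flight and 3 ground libraries. In sku5, 2072 genes (10.3%) were called, 1016 higher (5.05%) and 1056 lower (5.25%). Of the WS calls, 1458 were called in the same direction in sku5, which is 62.2% of the WS and 70.4% of the sku5 calls, and 0 in the opposite direction. The test of the difference itself called 0 of 20127 genes (0.0%), with 317 genes at an unadjusted p under 0.05. That is under the share of 0.05 that would arise if no gene differed. The 0 calls therefore do not show that the lines responded alike. Side by side, TIP2;3 changed by 1.93 in WS and 2.19 in sku5, MYB34 by -1.56 and -1.52, CYCD3;1 by -1.26 and -1.13, and PP2-A1 by 1.46 and 1.85. The aquaporin list had 11 of 23 higher and 1 lower in sku5, and the indole glucosinolate list 1 higher and 9 lower of 19. The DNA replication list had 0 higher and 1 lower of 12 in sku5, which was CYCD3;1, against 4 lower in WS. PCNA1 (-0.71), MCM6 (-0.47) and CYCD3;3 (-0.43) were not called in sku5, nor was the dividing-cell marker CDKB1;1 (-0.58). Without WS flight replicate 2, 1 gene was called for the difference, the metallothionein MT1A (AT1G07600). It was listed at 0 in that library and in all 3 sku5 flight libraries, but between 9906 and 27513 FPKM in the sku5 ground libraries, so a zero in these files can be a failed estimate.

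WS was also flown on the Virgin Galactic vehicle at 10 days of age, with its own ground control. Vehicle, age and growth conditions differ together between the 2 flights and cannot be told apart. That pair of groups gave 6 calls (0.0298%), 2 higher (0.00994%) and 4 lower (0.0199%). How much the WS effect differed between vehicles was tested directly, and 1375 genes (6.83%) were called, 731 higher (3.63%) and 644 lower (3.2%) at Blue Origin. That count fell to 467 without Blue Origin ground replicate 1, 530 without Virgin Galactic ground replicate 3, 616 without Virgin Galactic flight replicate 2, 649 without Virgin Galactic ground replicate 1, 715 without Blue Origin flight replicate 3, 780 without Blue Origin ground replicate 3 and 881 without Blue Origin flight replicate 1. With a scale factor for each library, 853 were higher and 545 lower (61.0% higher against 53.2%). Among aquaporins the difference was called for 5 of 23. TIP2;3 changed by 1.93 at Blue Origin and -0.11 at Virgin Galactic (difference 2.03, limma adjusted p = 0.00818). MYB34 changed by -1.56 and 0.02 (difference -1.57, limma adjusted p = 0.00877), and PCNA1 by -0.91 and 0.79 (difference -1.69, limma adjusted p = 0.00909). The gene called in both pairs was EBF2, in opposite directions: 0.61 at Blue Origin and -1.12 at Virgin Galactic (difference 1.73, limma adjusted p = 0.00238).

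**Figure D5:**
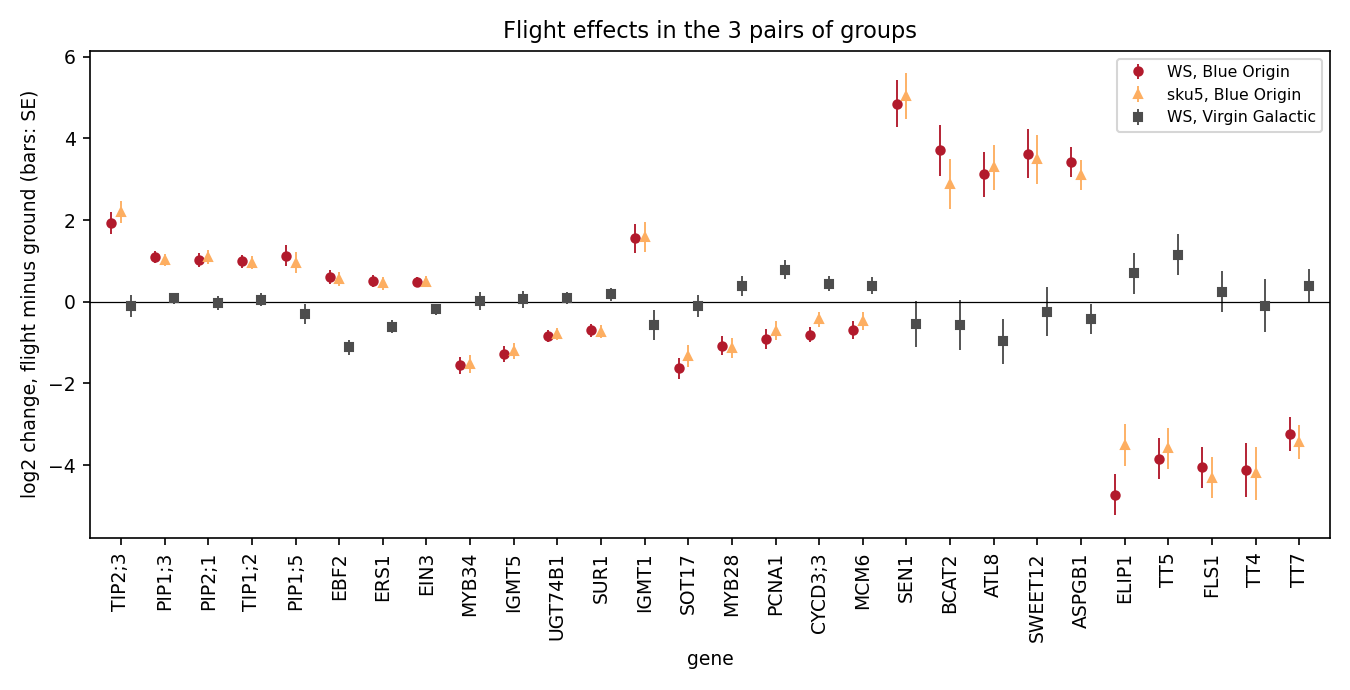
Log2 change between flight and ground (y axis, bars are SE) of 28 genes (x axis) in WS on Blue Origin (red circles), sku5 on Blue Origin (orange triangles) and WS on Virgin Galactic (grey squares), for genes whose WS effect differed between vehicles in limma. Red and orange points lie on the same side of 0 for all 28 genes, and grey points lie between -1.12 and 1.16.

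The authors' deposited table for this comparison lists 865 genes, 525 higher and 340 lower, each with a log2 change of at least 1.0 in size. Its p-values are at most 0.01 and it rests on the same libraries, so the overlap is no independent check. The calls here had no cut on size, and 471 of the higher and 501 of the lower ones changed by at least 1 on the log2 scale. Of the genes in the authors' deposited table, 844 (97.6%) were called here in the same direction and 0 in the opposite one, and they make up 36.0% of the calls here. In the authors' deposited table for sku5, 601 of these genes were listed in the same direction among 923.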

How the data were processed

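Root mRNA was sequenced from poly(A)-selected directional libraries, per the labels' protocols. The submitters' processing notes name Trimmomatic 0.36, FastQC 0.11.4, MultiQC 1.1, STAR 2.7.3a, RSEM 1.2.31 and DESeq2. Neither the genome build and annotation nor the use of strand in counting is given in the sources used here, so reads of overlapping or antisense genes cannot be told apart. The deposited expression table holds FPKM values per gene and library, as the authors computed them. The authors' deposited tables of comparisons hold log2 changes, p-values of at most 0.01 and a mean signal per gene (a normalized count), and only their gene lists and directions enter the text. Read counts per library are unknown, so no counting interval is given. FPKM sums ran from 1021562 to 1116353 in the 6 libraries, and rRNA genes took 16.0% to 23.4% of them. Flight libraries held ERCC mix 1 and ground libraries mix 2, per the labels. RNA integrity numbers ran from 7.1 to 9.4.

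Of 32844 genes, the 20127 that reached 1 FPKM in 3 or more of the 18 WS and sku5 libraries were fitted on log2(FPKM + 1) with limma 3.58.1 in R 4.3.3, using a mean-variance trend, 6 group means and 12 residual degrees of freedom. Tests were two-sided, with Benjamini-Hochberg adjustment over all genes tested and a threshold of 0.05. The difference between lines and between vehicles was tested as an interaction in the same fit. Tables and figures were made with Python 3.11.15, pandas 2.3.3, numpy 2.4.6 and matplotlib 3.10.9, and the fit was tested on simulated data. Alternatives were a pseudocount of 0.1, no filter, a filter at 5 FPKM, a scale factor for each library, quantile normalization, only the libraries compared, a replicate block, and leaving out each library. Genes named are the 15 largest rises and 15 largest falls with a symbol, no overlap between groups and at least the median level, outside the starvation, light and iron lists, from each list at most 4 called genes, taken by smallest p, and the genes marked as chosen after their values were seen. Other list members are given to show a group in full. The gene lists, the comparison and these rules were chosen with earlier results of these data known. Names and shared 50-base words come from RefSeq records of TAIR10.1.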

Additional observations from a re-analysis of the deposited data

Results flagged for a closer look

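Each value here is the difference of the WS flight effect, Blue Origin minus Virgin Galactic, on the log2 scale. It stands out because limma's test of that difference itself passed the threshold. In all, 1375 genes did so. Vehicle, plant age, site and growth conditions differ together between the pairs of groups and cannot be told apart. Among aquaporins the differences were 2.03 for TIP2;3, 1.01 for PIP1;3, 1.05 for PIP2;1, 0.94 for TIP1;2 and 1.43 for PIP1;5. Ethylene genes differed by 1.73 (EBF2), 1.12 (ERS1) and 0.66 (EIN3). Indole glucosinolate genes differed by -1.57 (MYB34), -1.34 (IGMT5), -0.92 (UGT74B1), -0.88 (SUR1) and 2.12 (IGMT1), and aliphatic ones by -1.53 (SOT17) and -1.45 (MYB28). DNA replication genes differed by -1.69 (PCNA1), -1.25 (CYCD3;3) and -1.09 (MCM6). The next genes were taken among those called that have a symbol and a highest group mean at or above the median level. Their largest positive differences were 5.40 for SEN1, 4.27 for BCAT2, 4.10 for ATL8, 3.87 for SWEET12 and 3.86 for ASPGB1. The largest negative ones were -5.41 for ELIP1, -4.99 for TT5, -4.29 for FLS1, -4.02 for TT4 and -3.62 for TT7. Of these 28 genes, 17 kept the call in each of 12 fits that left out 1 WS library, and 11 lost it at least once: PIP2;1, TIP1;2, PIP1;5, EIN3, UGT74B1, SUR1, IGMT1, SOT17, MYB28, MCM6 and TT4. Here BO and VG stand for the vehicles Blue Origin and Virgin Galactic. Each of the 11 lost it without BO ground replicate 1. Without that library alone UGT74B1 lost it (range over the 12 fits -1.01 to -0.79). PIP2;1 (0.94 to 1.18), TIP1;2 (0.80 to 1.06) and MYB28 (-1.60 to -1.26) lost it also without VG flight replicate 2 or VG ground replicate 3. TT4 (-4.73 to -3.54) lost it without VG ground replicate 3, and IGMT1 (1.69 to 2.36) without VG flight replicate 2 or VG ground replicate 1 or 3. PIP1;5 (1.23 to 1.60) lost it without BO flight replicate 3, VG flight replicate 2 or 3 or VG ground replicate 1. SUR1 (-1.04 to -0.71) lost it without BO flight replicate 2 or 3, VG flight replicate 2 or VG ground replicate 1 or 3. EIN3 (0.56 to 0.78) lost it in 8 of the 12 fits, SOT17 (-1.90 to -1.29) in 7 and MCM6 (-1.24 to -0.88) in 9.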

How the results depend on the processing

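Leaving out 1 library at a time gave 879 to 1962 calls for WS on Blue Origin, against 2345 with all libraries, with 1421 and 1295 without flight replicates 1 and 3, and 879 and 1351 without ground replicates 1 and 3. Fitting the compared libraries alone gave 3257. Dropping 3 libraries apart from the rest on the third component gave 3389 (WS Virgin Galactic flight replicate 2, sku5 flight replicate 3 and sku5 ground replicate 3, a setting chosen after seeing the data). The count was 2182 with a pseudocount of 0.1, 2138 with no filter, 2392 with the filter at 5 FPKM, 2374 with scale factors and 2426 with quantile normalization. The vehicle difference gave 467 to 1878 calls with 1 library left out, against 1375, with 881, 715, 467 and 780 without Blue Origin flight replicate 1 or 3 or ground replicate 1 or 3, and 616, 649 and 530 without Virgin Galactic flight replicate 2 or ground replicate 1 or 3. It gave 1162 to 1861 calls under the other settings. The line difference gave 0 calls in limma, except for 1 without WS flight replicate 2 (0 to 1 over the fits with 1 library left out). At an unadjusted p under 0.05 lay 317 genes, fewer than would arise if no gene differed.

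Replicate numbers did not pair the libraries: deviations of same-numbered flight and ground libraries correlated at 0.02, -0.10 and -0.03. With the replicate block, 2411 genes were called for WS on Blue Origin, 1637 for the vehicle difference and 0 for the line difference.

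Of 112 genes named by rule, 63 kept their call in all 6 fits with 1 library left out, and 44 lost it without ground replicate 1. Scale factors ended 9 calls (AT1G75670, ARR6, GASA6, GAPC2, PGK, CAX1, XRI1, MCM6 and COB) and quantile normalization 6 (AT1G75670, GA2OX1, GASA6, GAPC2, XRI1 and MCM6). The pseudocount of 0.1 ended 9 (CWINV5, PR-1-LIKE, NPQ4, GA2OX1, GA3OX2, GASA6, ZIP4, XRI1 and MCM6). The replicate block ended 15 (MEE14, AT1G75670, ERS1, GA2OX1, CYP86B1, PCK1, GAPC2, PGK, ZIP4, CAX1, XRI1, MCM6, COB, MVK and CDKB1;1), and fitting the compared libraries alone ended 4 (AT1G75670, GAPC2, MCM6 and GRP8). With no filter, calls ended for MEE14, GSTL1, RPL23AA, AT1G75670, GASA6, CPD, FAH1, PGK, ZIP4, CAX1 and MCM6. None of 1567 such values changed sign. Of 37 list medians, 25 kept their sign under every setting run. The 12 that changed sign were those of proteasome, glutathione, ethylene, cytokinin, gibberellin, potassium and sodium transport, root meristem, wall sensing, splicing, endodermis, root cap and leaf photosynthesis. Depth is unknown, so differences in genes under 5 FPKM, of which 2.97% were called, may not have been detectable. The p-values rest on a spread pooled over the 18 libraries of the fit, with 3 libraries a group from 1 fixation tube.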
